A study of Mus musculus with 15 samples.

Results

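The genes described here are 34 members of the unfolded protein response and of the protein folding machinery of the endoplasmic reticulum (ER), out of 18193 genes measured. They were chosen by name, with earlier results of these data known, and each was represented by its probe set, the group of array probes for 1 transcript, with the highest mean over all 15 arrays. All 34 were on the array. By role they comprise 5 stress sensors and transcription factors, 5 genes of the Ddit3 branch, 15 chaperones and folding enzymes, 7 genes of ER-associated degradation and 2 genes of translocation into the ER.

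RNA was measured on Affymetrix mouse arrays in 5 lines of 1 lineage, with 3 arrays per line. NMuMG is an established wild-type line of normal mouse mammary gland epithelium that was not selected in mice. E1KD is NMuMG with hnRNP E1 silenced, also without selection in mice; hnRNP E1, encoded by Pcbp1, is an RNA-binding protein that restrains the translation of selected messages. The other lines carry the same silencing and were selected in NOD/SCID mice, which lack adaptive immunity. M1P came from a tumour that E1KD formed in the mammary fat pad (passage 1), L1P came from the lungs of mice given E1KD cells in the fat pad (passage 1), and L2P came from the lungs after L1P was injected in the same way (passage 2). The culture medium, with serum and antibiotics, was the same for the 5 lines. Each group is 1 line, so a difference between groups is a difference between these lines. No control-vector line was analysed here, so silencing and any other difference between NMuMG and E1KD cannot be told apart. Nothing in the labels tells whether replicate arrays were made from separate cultures; the tests therefore weigh a difference against a spread between arrays that may be technical only.

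Arrays had medians of 4.17 to 4.26 on the deposited log2 scale, and their number limits the precision. The 75th percentile of the signal was 6.33 in M1P array 1, against 6.64 to 6.86 in every other array, so that array differed in its overall distribution. Pcbp1 averaged 12.68 in NMuMG and 8.15 to 9.83 in the silenced lines, so every line went with its label as silenced or not. This gene does not check which silenced line is which. Krt8, Krt18, Krt19 and Cdh1 were bright in every line, whereas the epithelial genes Epcam and Cldn7 were dim, with line means of 5.03 to 5.57 and 3.16 to 3.44. The 3 M1P arrays stood apart from each other: they correlated at 0.93 to 0.98, against 0.98 or more within every other line, and 15.2% of all genes had an SD over 0.7 in M1P, against 0.33 to 4.23% in the other lines. Because all lines shared 1 estimate of spread, the M1P scatter enters every test. Calls of members in M1P against E1KD are read with and without its scattered arrays. Counts of the wider lists and the marker rises are given with all 3 M1P arrays only, and so are some single genes of those lists. In RNA from whole cultures, fewer cells with a message and less message per cell cannot be told apart.

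Proteins that enter the ER are folded by resident chaperones, and a load beyond their capacity is sensed in the ER membrane. The sensor IRE1 (Ern1) splices Xbp1 mRNA into a form that encodes an active transcription factor, ATF6 is cut to release its active part, and PERK (Eif2ak3) slows translation while favouring ATF4. XBP1 and ATF6 raise chaperones and genes of ER-associated degradation, which removes misfolded proteins. ATF4 raises Ddit3 (CHOP) and its partners, a branch tied to feedback on translation and to cell death when stress persists. Secretory mammary epithelium depends on this response during milk production.

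Many of these genes carry the ER stress response element just upstream of their start, the sequence to which ATF6 and XBP1 bind together with NF-Y. RefSeq promoters (GRCm38.p6, 250 bases before to 50 after the start) were found for 30 of the 34 members, and Atf6, Hyou1, Manf and Derl1 are named without one. The element is CCAAT, then 9 bases of any kind, then CCACG, and it was searched on both strands; it was found in 9 of these 30 members (30.0%) and in 0.137% of the 27025 genes in the table. Its shorter variant ERSE-II, which is ATTGG, any base and CCACG, and which did not overlap a full element here, was found in 2 of 30 members (6.67%) and in 0.0444% of genes. The XBP1-preferred motif TGACGTGG was found in none of the 30 members and in 0.714% of genes, and an ATF4 composite element, TGATGNAAT, in none of the 30 and in 1.08% of genes. A match describes the sequence only, and an absent match says only that these letters are not in this window. The 5 members below that hold either element and rose in M1P, followed by 2 holders that did not, show how the element sits; capitals mark the match, and each stretch is read in the direction of its gene.
Pdia6, chr12:17266471-17266529, plus strand, 98 bases before the start: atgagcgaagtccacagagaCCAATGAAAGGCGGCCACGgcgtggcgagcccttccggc
Creld2, chr15:88819500-88819558, plus strand, 126 bases before the start, reverse complement of the element: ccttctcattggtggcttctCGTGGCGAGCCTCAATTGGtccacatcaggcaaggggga
Syvn1, chr19:6046512-6046570, plus strand, 44 bases before the start: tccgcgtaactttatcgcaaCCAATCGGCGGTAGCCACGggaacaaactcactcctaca
Herpud1, chr8:94386357-94386407, plus strand, ERSE-II, 52 bases before the start: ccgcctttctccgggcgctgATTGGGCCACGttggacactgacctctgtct
Dnajb11, chr16:22857852-22857862, plus strand, ERSE-II, 7 bases after the start: ATTGGCCCACG
Hspa5, chr2:34772005-34772063, plus strand, 65 bases before the start: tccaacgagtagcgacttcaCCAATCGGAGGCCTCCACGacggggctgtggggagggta
Dnajc3, chr14:118937807-118937865, plus strand, 105 bases before the start: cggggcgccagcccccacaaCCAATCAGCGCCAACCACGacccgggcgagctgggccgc
Hsp90b1 held 2 elements, and Calr, Canx and Derl3 held 1 each. In M1P against E1KD, 5 of the 11 holders of either element rose, 5 of the 19 members without one rose and 1 fell, and 2 of the 4 without a promoter in the table rose, where 17.7% of all genes rose and 9.86% fell; these counts were not tested against each other.

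Across the lines, Xbp1 was low in E1KD and higher in every line passaged in mice. The tumour line M1P held most of the members' calls against E1KD, as it did over all genes (27.6% passed in M1P, 2.48% in L1P and 3.78% in L2P). In M1P, 6 of 15 folding genes and 3 of 7 degradation genes rose, where 17.7% of all genes rose. Without M1P arrays 1 and 2, which leaves array 3 alone, all 13 members that passed in M1P kept their direction. Array 3 was part of the test that picked them. A kept direction in the fit on array 3 was therefore likely beforehand and is not independent support. Many of the calls ended in that fit, as given below. By limma's F test, 13 of the 34 members differed among the 5 lines, where 31.8% of all genes did, and 15 differed among the 4 silenced lines, where 27.4% of all genes did. M1P had the highest mean of the 5 lines for 17 members and the lowest for 8. The same count was not made over all genes, of which 12747 of 18193 were higher in M1P than in E1KD. The counts of 17 and 8 are therefore not read as particular to the members. In the pairwise tests (limma, adjusted p under 0.05 over all 18193 genes), a gene that passed is said to have risen or fallen in the line named first.

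**Figure D1:**
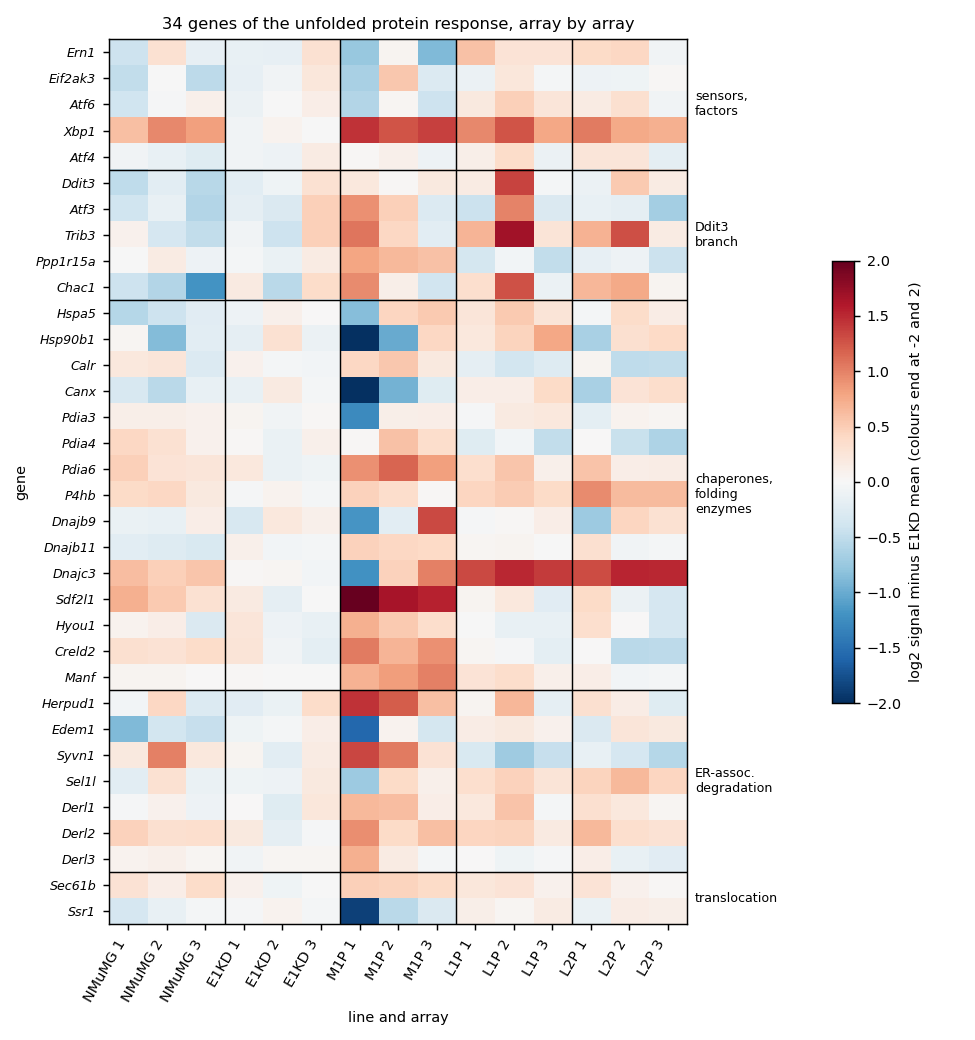
Each row is 1 of the 34 genes and each column 1 of the 15 arrays; colour gives the log2 signal minus that gene's mean in E1KD, from blue (lower) to red (higher), with colours ending at -2 and 2. Xbp1 is red in every array outside E1KD, Sdf2l1, Manf and Creld2 are red in all 3 M1P arrays, and M1P array 1 holds the deepest blue cells, Hsp90b1 and Canx.

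E1KD against NMuMG gave no rise and 1 fall among the 34 members, where 9.49% of all genes passed (3% rose and 6.49% fell). M1P against E1KD gave 12 rises and 1 fall, where 27.6% of all genes passed (17.7% rose and 9.86% fell). L1P against E1KD gave 1 rise, where 2.48% of all genes passed (1.19% rose and 1.29% fell), and L2P against E1KD gave 2 rises, where 3.78% passed (2.14% rose and 1.64% fell). L2P against L1P gave 0 by limma, where 0.143% of all genes passed (0.0934% rose and 0.0495% fell), and 1 member had an unadjusted p under 0.05; the 15 alternatives run for this comparison also gave 0. L1P against M1P gave 6 rises and 11 falls, where 39.5% of all genes passed (13.6% rose and 25.9% fell). The median log2 difference of the members was 0.30 in M1P against E1KD, beside 0.20 over all genes, and 0.19 in L1P against E1KD, beside -0.03.

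Among the sensors and factors, Xbp1, the transcription factor that drives much of the folding response, was the member that changed in the most comparisons. Its log2 signal was 10.53, 10.89 and 10.74 in the NMuMG arrays and 9.86, 10.001 and 9.92 in E1KD. In M1P it was 11.37, 11.18 and 11.29, in L1P 10.88, 11.19 and 10.70, and in L2P 10.97, 10.68 and 10.63. All E1KD arrays lay below every array of the other lines, and all M1P arrays but one lay above every L1P and L2P array. Xbp1 fell 1.74-fold in E1KD against NMuMG (log2 difference -0.80 ± 0.15, standard error; adjusted p = 0.00324). Against E1KD it rose 2.56-fold in M1P (1.35 ± 0.15, adjusted p = 0.000164), 2.00-fold in L1P (1.00 ± 0.15, adjusted p = 0.0017) and 1.78-fold in L2P (0.83 ± 0.15, adjusted p = 0.00459). These 3 comparisons share the E1KD arrays. The difference between L1P and M1P was -0.36 ± 0.15 and did not pass (adjusted p = 0.0656). All 4 calls passed under each of the 15 alternatives that bore on them. The fit without M1P arrays 1 and 2 bore on the M1P call alone, and array 3 stood 1.37 above the E1KD mean. Of the 3 other Xbp1 probe sets, 2 rose in all 3 passaged lines, and the dimmest rose in M1P alone (0.95) with 0.54 in L1P and 0.32 in L2P. The array does not separate spliced from unspliced Xbp1.

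The sensors themselves did not pass against E1KD, although a second Atf6 probe set fell in M1P (log2 difference -1.71). Ern1, the kinase and nuclease that splices Xbp1, read 6.26, 7.07 and 6.14 in M1P and 7.61, 7.30 and 7.30 in L1P, which did not overlap. Atf6, the membrane-bound factor, read 6.79, 7.42 and 6.96 in M1P and 7.58, 7.85 and 7.62 in L1P. Both rose in L1P against M1P, Ern1 by 0.91 ± 0.25 (adjusted p = 0.0181) and Atf6 by 0.63 ± 0.18 (adjusted p = 0.0197), and 1 other probe set of each gene rose too, Ern1 by 0.78 and Atf6 by 2.01. The 3 remaining Ern1 probe sets were lower in L1P without passing (-0.12 to -0.40). Neither call held without M1P array 1 or by quantile normalization, and Ern1 also lost it without L1P array 1 or 3, Atf6 without L1P array 2 or 3, without M1P arrays 1 and 2 or under scaling to the 75th percentile. Eif2ak3, the kinase PERK, ranged from 7.16 to 8.34 over all arrays, and Atf4, whose protein is set mainly by translation, from 11.53 to 12.14. For Atf4 the difference between M1P and E1KD was 0.00 with a 95% interval of -0.33 to 0.33, and between L1P and E1KD 0.13 (-0.20 to 0.46).

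**Figure D2:**
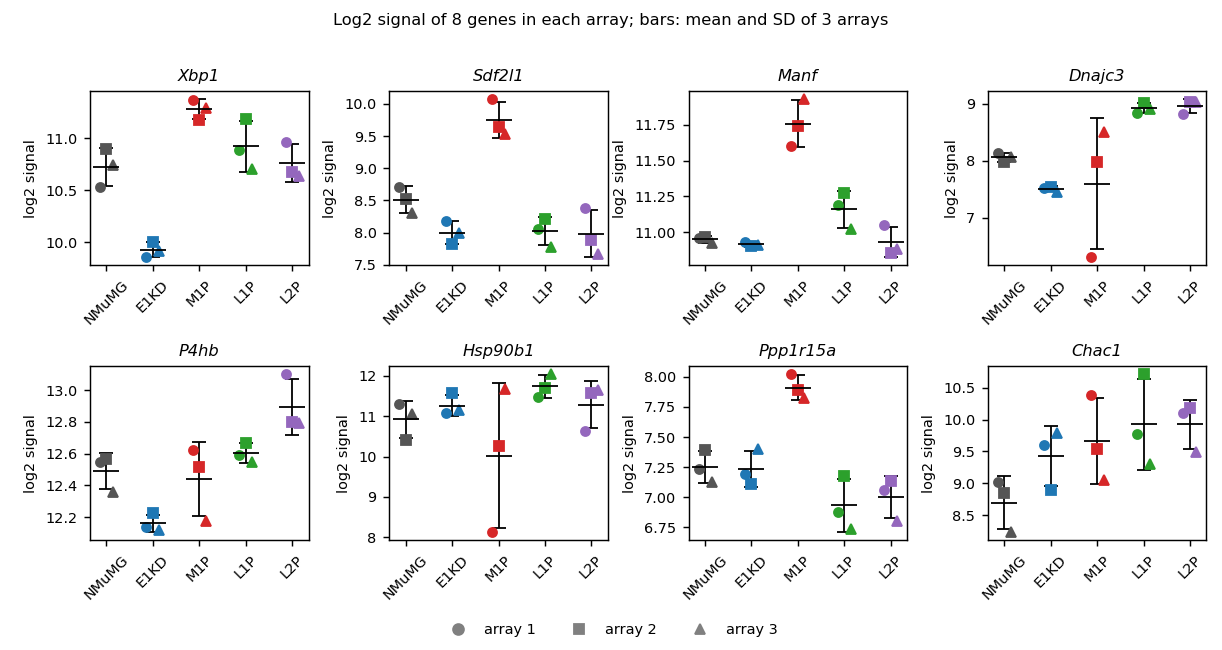
Log2 signal of 8 genes in each of the 15 arrays, by line; the marker shape gives the array number, the long bar the mean and the whiskers the SD of 3 arrays, and each panel has its own axis. Xbp1 is lowest in E1KD, Sdf2l1, Manf and Ppp1r15a are highest in M1P, Dnajc3 is highest in L1P and L2P, and Hsp90b1 spans 8.12 to 11.68 within M1P.

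In the Ddit3 branch, 1 of 5 genes rose in M1P, where 17.7% of all genes rose, and none passed in E1KD, L1P or L2P. Ppp1r15a, the phosphatase subunit that restores translation after eIF2 alpha is phosphorylated, read 7.19, 7.11 and 7.40 in E1KD and 8.02, 7.89 and 7.82 in M1P. It read 6.88, 7.18 and 6.74 in L1P and 7.06, 7.13 and 6.80 in L2P, so all M1P arrays lay above all others. The rise in M1P was 1.60-fold (0.68 ± 0.14, adjusted p = 0.00839), and it fell 1.97-fold in L1P against M1P (-0.98 ± 0.14, adjusted p = 0.000868). Without M1P arrays 1 and 2 the rise was 0.59 and did not pass.

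Ddit3, which encodes CHOP, a factor tied to cell death under lasting stress, read 8.07, 8.19 and 8.58 in E1KD, 8.49, 8.31 and 8.48 in M1P, and 8.16, 8.80 and 8.45 in L2P. In L1P it read 8.44, 9.64 and 8.24, with array 2 far above the others. Its difference from E1KD was 0.15 in M1P (95% interval -0.49 to 0.79), 0.49 in L1P (-0.15 to 1.13) and 0.19 in L2P (-0.45 to 0.83), so a change of up to about the upper bound could not be told from none. A dimmer Ddit3 probe set rose in M1P by 0.60 (adjusted p = 0.0279 over all probe sets with 1 symbol). Atf3, a partner factor, Trib3, a pseudokinase that damps ATF4 and CHOP, and Chac1, an enzyme that degrades glutathione, passed in no comparison. Chac1 read 9.02, 8.85 and 8.23 in NMuMG and 9.61, 8.90 and 9.79 in E1KD, and Trib3 read 9.42, 10.42 and 8.999 in L1P against 8.66, 8.33 and 9.22 in E1KD. The branch's median difference was 0.49 in L1P against E1KD, with 4 of 5 genes higher, beside -0.03 over all genes. Array by array it was 0.16, 1.28 and -0.12, so L1P array 2 stood apart.

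Within lines, the Ddit3-branch genes often shared their highest or lowest array. All 5 were highest in the same array in E1KD (array 3), M1P (array 1) and L1P (array 2), and all 5 were lowest in NMuMG array 3. In L2P, 4 of the 5 were highest in array 2. Over all genes, those arrays were the highest of their line for 34.5%, 58.2%, 36.6% and 19.4% of genes, and NMuMG array 3 the lowest of its line for 36.3%. The highest array was split in NMuMG, 2 of the 5 in array 1 and 3 in array 2. Sizes differed in M1P arrays 1 and 3, read against the E1KD mean. Ddit3 was 0.21 and 0.20 and Ppp1r15a 0.79 and 0.59, while Atf3 was 0.92 and -0.28, Trib3 1.08 and -0.20 and Chac1 0.95 and -0.38. In L1P array 2, Atf3 read 8.43 against 6.997 and 7.14 in the other 2 arrays, and Chac1 read 10.71 against 9.77 and 9.31. Ddit3, Atf3, Trib3 and Chac1 were the only members with an SD over 0.7 in L1P. Other roles shared some of these arrays. Of the 7 degradation genes, 5 were highest in E1KD array 3, 5 in M1P array 1 and 5 in L1P array 2, and of the 5 sensors and factors, 4 were highest in E1KD array 3, 1 in M1P array 1 and 4 in L1P array 2. Of the 15 chaperones, 1 was highest in E1KD array 3, 5 in M1P array 1 and 8 in L1P array 2. Arrays are the unit here, and what set them apart within a line was not tested.

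**Figure D3:**
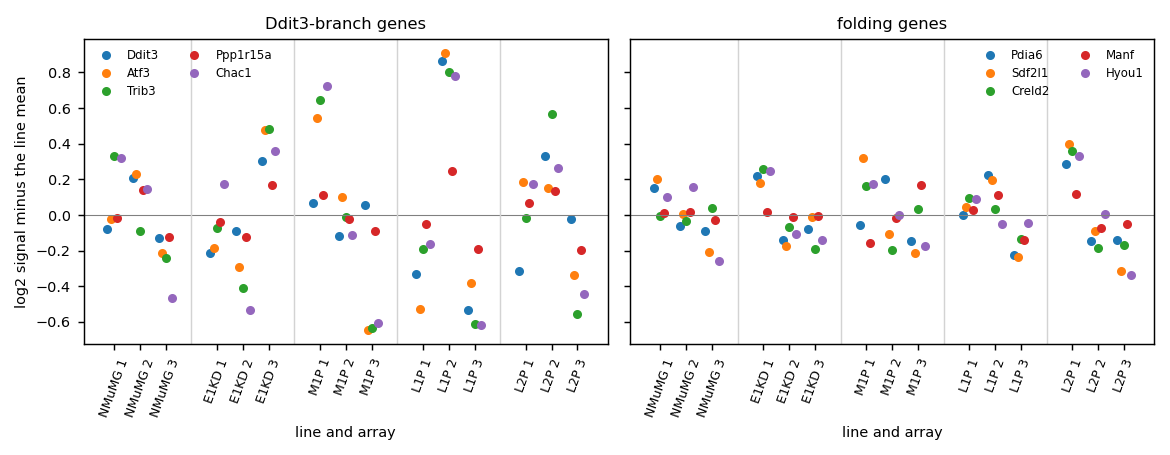
Log2 signal minus the mean of the line, per array, for the 5 Ddit3-branch genes (left) and 5 folding genes (right); points of 1 array are spread sideways only to be seen, and grey lines separate the lines. In L1P array 2, Ddit3, Atf3, Trib3 and Chac1 lie together far above the mean of L1P, while the folding genes stay closer to their line means.

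Among the 15 chaperones and folding enzymes, 6 rose in M1P against E1KD, where 17.7% of all genes rose. In L2P 1 rose, and none passed in E1KD or L1P. Their median difference in M1P was 0.32, beside 0.20 over all genes. Read array by array, the median stood 0.42, 0.47 and 0.42 above the E1KD mean in the 3 M1P arrays, beside 0.37, 0.16 and 0.07 over all genes.

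Sdf2l1, a partner of the ER chaperone BiP and a strongly inducible gene of the response, read 8.18, 7.83 and 7.99 in E1KD and 10.07, 9.64 and 9.54 in M1P. It read 8.72, 8.52 and 8.31 in NMuMG, 8.06, 8.21 and 7.78 in L1P, and 8.38, 7.89 and 7.67 in L2P. Every M1P array lay above every other array. Sdf2l1 rose 3.36-fold in M1P (1.75 ± 0.20, adjusted p = 0.000262) and fell 3.32-fold in L1P against M1P (-1.73 ± 0.20, adjusted p = 0.000234), and both calls passed under all 15 alternatives. These comparisons share the M1P arrays.

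Manf, a secreted ER protein that stabilises BiP, read 10.93, 10.90 and 10.91 in E1KD and 11.60, 11.74 and 11.93 in M1P, a rise of 0.84 ± 0.11 (1.80-fold, adjusted p = 0.000674). Creld2, a disulfide isomerase-like protein of the response, read 9.52, 9.20 and 9.08 in E1KD and 10.31, 9.95 and 10.18 in M1P, a rise of 0.88 ± 0.16 (1.84-fold, adjusted p = 0.00494). In both genes all M1P arrays lay above all arrays of the 4 other lines. In M1P array 3 alone, Manf stood 1.02 and Creld2 0.91 above the E1KD mean, with Sdf2l1 at 1.54 and Xbp1 at 1.37. All 13 members that passed in M1P kept their direction in array 3, which was part of the test that picked them. Fitted on M1P and E1KD alone, the genes of the 13 that passed were Xbp1 and Sdf2l1.

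Pdia6, a protein disulfide isomerase, rose in M1P by 0.97 ± 0.16 (adjusted p = 0.00316), from 10.03, 9.67 and 9.73 to 10.72, 10.98 and 10.63. Hyou1, a large chaperone that exchanges the nucleotide of BiP, rose by 0.53 ± 0.18 (adjusted p = 0.0444), and Dnajb11, a co-chaperone of BiP, by 0.43 ± 0.11 (adjusted p = 0.0206). The arrays of M1P and E1KD did not overlap for these 3 genes, but none of the 3 calls passed without M1P arrays 1 and 2, and those of Hyou1 and Dnajb11 also ended without M1P array 1 or without E1KD array 2 or 3, and that of Hyou1 without M1P array 2. A dimmer Hyou1 probe set rose by 0.88. In L1P against M1P all 6 fell, by 0.40 to 1.73 on the log2 scale, together with Calr (-0.65) and Pdia4 (-0.58). Without L1P array 3 the calls of Calr, Pdia4, Pdia6, Hyou1 and Dnajb11 in this comparison ended.

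Other chaperones, BiP among them, did not pass in M1P. Hspa5, which encodes BiP, the central chaperone and the one most used as a marker of ER stress, read 12.21, 12.42 and 12.32 in E1KD and 11.46, 12.74 and 12.84 in M1P. Its difference was 0.03 with a 95% interval of -0.57 to 0.64, and M1P array 1 lay below and arrays 2 and 3 above all E1KD arrays. Hsp90b1, the ER form of the chaperone Hsp90, read 8.12, 10.26 and 11.68 in M1P against 11.08 to 11.57 in E1KD. Canx, the lectin chaperone calnexin, read 9.46, 11.16 and 11.86 in M1P against 11.95, 12.29 and 12.07. The Hsp90b1 difference in M1P was -1.24 ± 0.64 (adjusted p = 0.142), and it was 0.42 in M1P array 3 alone, so its sign depends on M1P arrays 1 and 2. For Canx the difference was -1.27 ± 0.45 (adjusted p = 0.0516).

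Within M1P, 8 members had an SD over 0.7, namely Hspa5, Hsp90b1, Canx, Pdia3, Dnajb9, Dnajc3, Edem1 and Ssr1. All of them were lowest in M1P array 1, which was the lowest of its line for 26.8% of all genes. That share was not counted among the 15.2% of all genes with an SD over 0.7 in M1P, so it is not read as particular to these members. Dnajb9, another BiP co-chaperone, read 6.14, 7.11 and 8.64 in M1P, so that array 3 stood 1.32 above and array 1 1.18 below the E1KD mean. The 3′ minus 5′ signal of the Gapdh control probe sets, a guide to RNA integrity, was 0.25 to 0.45 in M1P and 0.19 to 0.41 in the other lines, and that of Actb 0.64 to 0.77 and 0.68 to 0.98. Their part in the scatter was not tested.

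**Figure D4:**
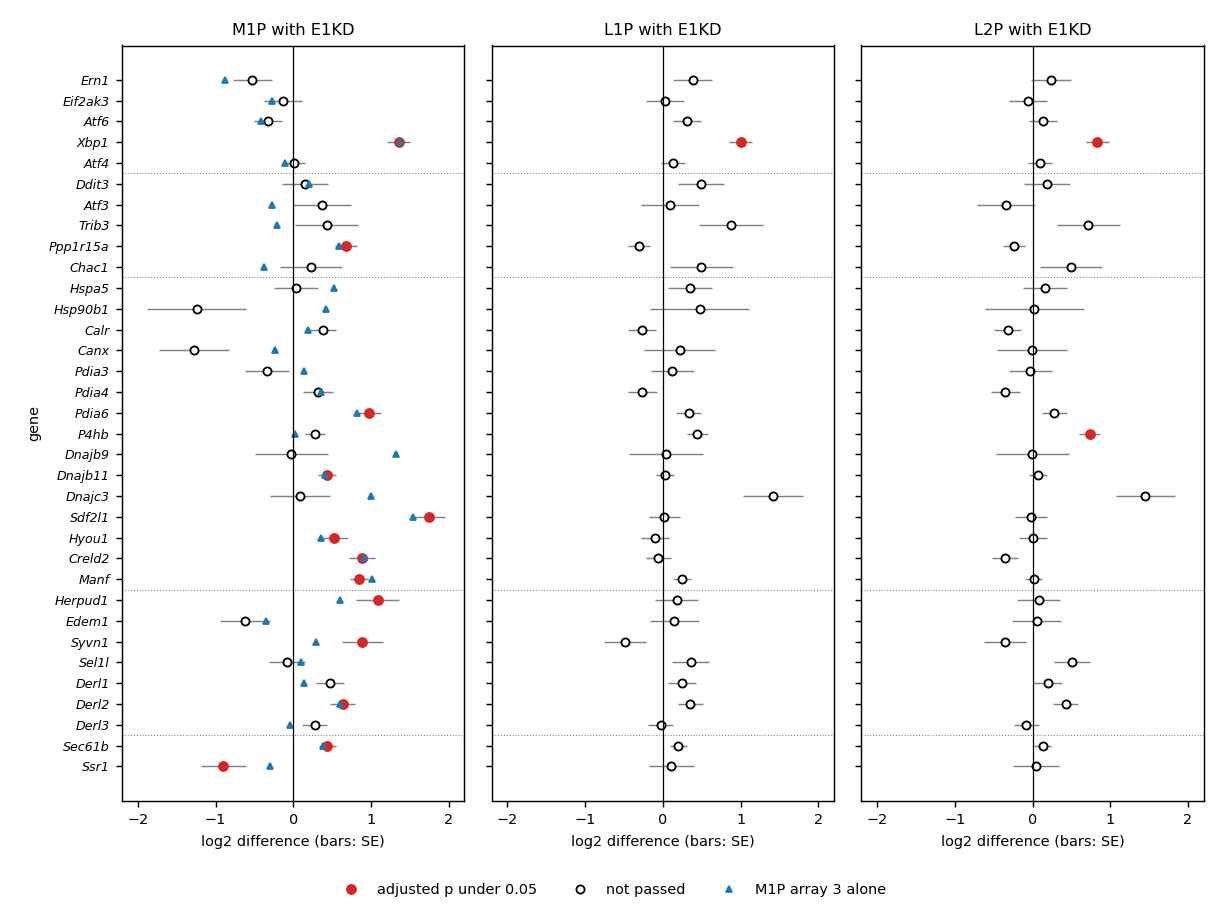
Log2 difference from E1KD of each of the 34 genes in M1P, L1P and L2P, with bars for the standard error; filled red points passed an adjusted p under 0.05, open points did not, dotted lines separate the roles, and blue triangles give M1P array 3 alone. Of the 13 genes that passed in M1P, the triangle lies on the same side of 0 as the mean for all 13, while it lies on the other side for Hsp90b1. Array 3 is part of that mean and of the test that picked the 13.

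In the lung lines 1 folding gene passed against E1KD, P4hb in L2P. P4hb, the beta subunit of prolyl hydroxylase and a disulfide isomerase, read 12.14, 12.22 and 12.12 in E1KD, 12.59, 12.67 and 12.55 in L1P and 13.10, 12.80 and 12.79 in L2P. It rose in L2P by 0.73 ± 0.13 (1.66-fold, adjusted p = 0.00563), and in L1P its arrays lay above those of E1KD with a difference of 0.44 ± 0.13 that did not pass (adjusted p = 0.128). The L2P call ended when each array was scaled to its 75th percentile (adjusted p = 0.0726).

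Dnajc3, a co-chaperone that also inhibits the kinase PERK, had the largest difference of any member in both lung lines. It read 7.53, 7.54 and 7.46 in E1KD, 8.84, 9.02 and 8.91 in L1P and 8.82, 9.03 and 9.03 in L2P, with 8.14, 7.98 and 8.07 in NMuMG. The arrays of both lung lines lay above all arrays of the other lines. In M1P it read 6.31, 7.98 and 8.51. The differences from E1KD were 1.41 ± 0.38 in L1P (2.66-fold, adjusted p = 0.0825) and 1.45 ± 0.38 in L2P (2.73-fold, adjusted p = 0.0564), with 95% intervals of 0.59 to 2.24 and 0.62 to 2.27, so neither passed after adjustment. The M1P spread of 1.15 enters that standard error: without the 3 M1P arrays, a fit chosen after seeing the data, both passed. Both also passed by quantile normalization, under scaling to the 75th percentile, with array weights and in the fit of only the 2 lines compared, and L2P with the replicate number as a block. The 4 other Dnajc3 probe sets were higher in L1P and L2P as well, and none passed.

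Of the 7 genes of ER-associated degradation, 3 rose in M1P against E1KD, where 17.7% of all genes rose. None passed in E1KD, L1P or L2P. Their median difference in M1P was 0.47, and array by array it was 0.70, 0.38 and 0.14. Herpud1, a membrane scaffold of the degradation complex, read 9.11, 9.21 and 9.70 in E1KD and 10.78, 10.56 and 9.94 in M1P, a rise of 1.09 ± 0.28 (2.12-fold, adjusted p = 0.0176). Syvn1, the ubiquitin ligase Hrd1, read 8.23, 7.97 and 8.34 in E1KD and 9.52, 9.22 and 8.47 in M1P, a rise of 0.89 ± 0.27 (adjusted p = 0.031). Derl2, a channel-like protein of the same complex, rose by 0.64 ± 0.16 (adjusted p = 0.0158). M1P array 3 was the lowest M1P array for Herpud1 and Syvn1 and lay above the E1KD arrays.

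None of these 3 calls passed without M1P array 1, without E1KD array 2 or without M1P arrays 1 and 2, and Syvn1 also lost its call without M1P array 2. Without E1KD array 1 the calls of Herpud1 and Syvn1 ended, and without E1KD array 3 that of Syvn1. Both Herpud1 probe sets and both Syvn1 probe sets rose. A dimmer Derl2 probe set fell by 1.81 in M1P, against the rise of the brighter one, and 2 probe sets of Edem1, which trims mannose from misfolded glycoproteins, stood at -0.62 and 0.88, the second a rise. Derl1 differed by 0.47 ± 0.18 and did not pass (adjusted p = 0.067), while its 3 dimmer probe sets rose by 0.59 to 0.86. Sel1l, the adaptor of Hrd1, differed by -0.08, and 2 of its dimmer probe sets rose. Derl3 read 5.02 to 5.95 over all arrays.

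In L1P against M1P, Syvn1 fell 2.60-fold (-1.38 ± 0.27, adjusted p = 0.0041), with L1P arrays at 7.88, 7.47 and 7.72. Herpud1 fell by 0.91 ± 0.28 (adjusted p = 0.025), but its arrays overlapped, because L1P array 2 read 10.001 and M1P array 3 read 9.94. No gene of this group passed in L2P against L1P.

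The 2 translocation genes went opposite ways in M1P. Sec61b, a subunit of the channel through which proteins enter the ER, read 11.47, 11.30 and 11.38 in E1KD and 11.87, 11.83 and 11.77 in M1P, a rise of 0.43 ± 0.11 (adjusted p = 0.0166) that did not pass without E1KD array 2 or without M1P arrays 1 and 2. Ssr1, a subunit of the translocon-associated complex, read 10.74, 10.84 and 10.74 in E1KD and 8.91, 10.23 and 10.48 in M1P, a fall of 0.90 on the log2 scale (standard error 0.29, adjusted p = 0.0387). Ssr1 stood at -0.30 in M1P array 3, and its call ended without M1P array 1 or any single E1KD array. Another Ssr1 probe set differed by 0.28 in the other direction.

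Read by role, M1P against E1KD held 6 rises among 15 folding genes and 3 among 7 degradation genes. It held 1 among 5 Ddit3-branch genes and 1 among 5 sensors and factors, where 17.7% of all genes rose. In that comparison the median differences of these roles were 0.32, 0.47, 0.37 and -0.13, beside 0.20 over all genes. The Ddit3-branch median moved from 0.92 in M1P array 1 to 0.42 in array 2 and -0.20 in array 3. The counts were not tested against each other. Under scaling to the 75th percentile the median of all genes in M1P against E1KD moved from 0.20 to 0.43 and 16 members rose and 2 fell, and 77.9% of all calls were then rises, against 64.2% as deposited. In L1P against M1P the same scaling moved the share of rises from 34.3% to 19.4% and gave 5 rises and 15 falls.

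Markers of other cell types were low as lists, with single genes that were not. The mean log2 signal of 6 genes per list was 3.03 to 3.75 for fibroblast genes, 2.95 to 3.40 for endothelial genes and 3.65 to 4.35 for macrophage and leukocyte genes. For plasma cells, which run a strong unfolded protein response, it was 4.37 to 4.93 over the 15 arrays and 4.63 to 4.93 in M1P. In that list all 6 genes were higher in M1P than in E1KD and 2 rose, Sdc1, an epithelial gene too, by 0.98 to 11.46 and Mzb1 by 0.52 to 5.01; Jchain was at 2.63, Prdm1 at 2.74 and Tnfrsf17 at 3.16 in M1P. The alveolar and airway list was 4.66 to 5.39 in M1P and 4.003 to 4.46 elsewhere; all 6 genes were higher in M1P than in E1KD and 2 rose, Foxj1 by 1.99 to 7.54 and Ager by 0.46, with Sftpc at 4.06 and Scgb1a1 at 2.69. Of the other lists, 1 endothelial gene, Kdr, rose in M1P (0.57). All 6 endothelial genes, all 6 macrophage and leukocyte genes, 5 of 6 fibroblast genes and 5 of 6 epithelial genes were also higher in M1P than in E1KD. Over all genes, 12747 of 18193 were higher in M1P than in E1KD and 17.7% rose, so being higher there was not particular to any list. The macrophage genes Cd68 and Lyz2 did not pass but differed from E1KD by 0.64 and 0.84 in L1P and by 1.18 and 1.02 in L2P, where Cd68 averaged 6.18. The part of these genes in the differences between lines was not tested.

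Wider lists of the pathway, written by hand, are read against the shares of all genes given above, in M1P 17.7% rising and 9.86% falling. Among 24 other ER folding enzymes, 7 rose (29.2%) and 1 fell in M1P, 2 rose in L1P, 3 rose in L2P, and 1 rose and 1 fell in E1KD. Serpinh1, the collagen chaperone Hsp47, rose by 1.83 ± 0.25 in E1KD against NMuMG and, against E1KD, by 3.24 ± 0.25 in M1P, 2.30 ± 0.25 in L1P and 2.46 ± 0.25 in L2P. Its arrays read 4.55 to 4.92 in NMuMG, 6.26 to 6.95 in E1KD, 9.39 to 10.26 in M1P, 8.56 to 9.16 in L1P and 8.80 to 9.39 in L2P. Ero1a, the oxidase that recharges disulfide isomerases, rose in L1P (1.31) and L2P (1.60) but read 8.14 to 8.69 in M1P against 8.54 to 9.02 in E1KD; its L1P call ended without E1KD array 1 or 2 or without L1P array 2, and with the probe set of largest variance neither the L1P nor the L2P call held.

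Among 20 other degradation genes, 5 rose (25%) and 3 fell (15%) in M1P and 1 rose in each lung line. That gene was Selenos, a selenoprotein of the Derlin complex, which rose in M1P (1.14), L1P (0.73) and L2P (0.73); its 9 arrays of passaged lines read 11.06 to 11.71 and its E1KD arrays 10.37 to 10.56. Among 16 further translocon and signal peptidase genes, 5 rose (31.2%) and 3 fell (18.8%) in M1P, and Sec11c, a signal peptidase subunit, rose in L1P (0.56) and L2P (0.58). In the glycoprotein folding cycle 4 of 18 genes rose in M1P (22.2%), with Ddost (0.67) and Edem2 (0.64) the largest; neither passed without M1P array 1, without E1KD array 2 or 3 or without M1P arrays 1 and 2, and Edem2 also not without E1KD array 1.

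The 24 targets of ATF4 in amino acid and stress metabolism gave 3 rises (12.5%) and 3 falls (12.5%) in M1P, 1 rise in L1P, 1 in L2P and 2 in E1KD. Nupr1, a stress-induced nuclear protein, rose in M1P (0.80), L1P (1.10) and L2P (1.07), while Cth, which makes cysteine, fell in M1P by 1.47 on the log2 scale. The Nupr1 calls all ended without E1KD array 2, and in L1P also without L1P array 1 or 2, in L2P without L2P array 2 and in M1P without M1P arrays 1 and 2. That of Cth ended without M1P array 1 or any single E1KD array. Slc7a5, an amino acid transporter, rose in E1KD by 1.23 and Vldlr by 1.77. Of 10 genes for eIF2 alpha kinases, phosphatases and the exchange factor, 3 rose (30%) and 2 fell (20%) in M1P and none passed in E1KD, L1P or L2P. Among 19 ER membrane stress factors, 4 rose (21.1%) and 2 fell in M1P. Atf5 (1.62) and Creb3 (1.32) rose and Mbtps2, a protease that releases ATF6, fell by 3.19 on the log2 scale; without M1P arrays 1 and 2 the Atf5 and Mbtps2 calls ended.

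Among 12 cytosolic heat shock genes, 1 rose (8.33%) and 5 fell (41.7%) in M1P, and 2 rose in E1KD. Array by array, the list's median against the E1KD mean was -0.37, -0.25 and -0.05 in M1P, so it was small in array 3. Over all genes it was 0.37, 0.16 and 0.07. Hspa1b, an inducible Hsp70, rose in E1KD by 2.36 ± 0.27 (adjusted p = 8.81e-05) and fell against E1KD by 2.68 on the log2 scale in L1P and by 2.17 in L2P. Its arrays read 6.37 to 6.65 in E1KD, 6.26 to 7.33 in M1P, 3.56 to 4.03 in L1P and 4.19 to 4.53 in L2P.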

How the data were processed

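Per the labels, total RNA of 15 samples of 5 mouse lines was amplified from the 3′ end, labelled with biotin and hybridised to Affymetrix arrays. The authors deposited 1 table of log2 signals for 45101 probe sets; per the submitters' processing notes RMA, MAS5 and the Affymetrix Expression Console were used, versions and roles being not given in the sources used here. No further normalization was applied and no detection calls were used, so a dim signal is not separated from none and folds of dim genes are compressed.

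Probe sets were named from the platform annotation: 34945 had 1 symbol, 932 several and 9160 none, and 64 were controls; symbols were updated by Entrez identifier for 34741 and kept for 204. Each of 18193 genes was represented by its brightest probe set; the 34 members have 79 probe sets.

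With limma 3.58.1 (R 4.3.3), 1 mean per line was estimated from the 15 arrays together (10 residual and 2.98 prior degrees of freedom), with two-sided moderated tests, F tests and Benjamini-Hochberg adjustment over all genes. The tests were tried on simulated data. Values after ± are standard errors.

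Members and lists were chosen with earlier results of these data known. All members could be named; from each wider list at most 2 rises and 2 falls per comparison, the largest that passed. Pycr1, Eif2s1, Fkbp10, Mesd, Sec61g, Srp54a, Bax, Hsp90ab1 and Hsf1 matched no probe set with 1 symbol and stayed out. Alternatives were quantile normalization, 75th percentile scaling, a filter at a mean log2 signal of 5, a trended robust prior, array weights, the replicate number as a block, only the 2 lines compared, the probe set of largest variance, each array left out, M1P arrays 1 and 2 left out and, chosen after seeing the data, a fit without the 3 M1P arrays and tests of every probe set.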

Additional observations from a re-analysis of the deposited data

Results flagged for a closer look

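In 17 members the 2 lines recovered after passage 1, from the fat pad tumour (M1P) and from the lung (L1P), differed when tested directly, which is the same as a difference between their changes from E1KD. Higher in L1P were the sensors Ern1 (0.91) and Atf6 (0.63), the chaperones Hsp90b1 (1.72), Canx (1.49) and Dnajc3 (1.33), and the translocon gene Ssr1 (1.01). Lower in L1P were the phosphatase subunit Ppp1r15a (-0.98), the folding genes Calr (-0.65), Pdia4 (-0.58), Pdia6 (-0.64), Dnajb11 (-0.40), Sdf2l1 (-1.73), Hyou1 (-0.63), Creld2 (-0.94) and Manf (-0.60), and the degradation genes Herpud1 (-0.91) and Syvn1 (-1.38). Values are log2 differences, L1P minus M1P, with 39.5% of all genes passing in this comparison. All 4 of the higher chaperone and translocon genes were lowest in M1P array 1, as were 26.8% of all genes. The arrays of Hsp90b1 and Herpud1 overlapped between the lines. Of the 17 calls, that of Sdf2l1 alone passed under all 15 alternatives. Without L1P array 3, 5 of them passed: Ppp1r15a, Sdf2l1, Creld2, Manf and Syvn1.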

How the results depend on the processing

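Counts of members that passed moved by over 1.5 times as follows; where no value shows the cause, the cause was not tested. With the replicate number as a block, E1KD against NMuMG gave 2 members against 1; same-numbered arrays correlated at -0.50 to 0.62 in their deviations, with number 1 at 0.37 to 0.58 in every comparison among silenced lines and numbers 2 and 3 under 0.1 in some, so not every pair deviated together and whether number 1 marks a shared batch was not tested; the block moved no other pairwise count as far. Fitting only the 2 lines compared gave 4 for E1KD against NMuMG, 3 against 1 for L1P against E1KD, 2 against 13 for M1P against E1KD and 3 against 17 for L1P against M1P. Array weights, whose estimation stopped short of its tolerance, gave 12, 5, 3 and 1 for these comparisons and 8 against 2 for L2P against E1KD. Quantile normalization gave 2 and 75th percentile scaling 2 for L1P against E1KD. Without the 3 M1P arrays there were 3 for E1KD against NMuMG and 3 for L1P against E1KD. Without M1P arrays 1 and 2 there were 5 for M1P against E1KD, 6 for L1P against M1P and 7 against 15 among the 4 silenced lines. Leaving out 1 array gave 6 (without E1KD array 2) to 18 (without M1P array 3) for M1P against E1KD, 5 (without L1P array 3) to 19 (without M1P array 3) for L1P against M1P, 9 (without L2P array 2) to 18 among the 4 silenced lines and 10 to 18 among all 5 lines.

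Some genes changed sign. Without M1P arrays 1 and 2, Derl1 was 0.11 and Derl3 0.007 in L1P against M1P, and Derl3 was -0.0372 and Hsp90b1 0.42 in M1P against E1KD. Dnajb9 in L1P against M1P was -0.18 by quantile normalization, -0.19 by 75th percentile scaling, -0.61 with array weights, -0.51, -0.03 and 0.74 without M1P array 1, 2 or 3, and -1.28 without both. Dnajc3 in M1P against E1KD was 0.73, -0.10 and -0.37 without M1P array 1, 2 or 3. With the probe set of largest variance, Dnajc3 was 0.25 in E1KD and -0.83 in M1P, Derl2 was 0.75 in E1KD, -1.81 in M1P and 1.94 in L1P against M1P, Sel1l was -0.38 and Eif2ak1 0.0202 in L1P against M1P, and Mbtps1 was -0.21 in E1KD. Directions and calls of Xbp1 against E1KD and of Sdf2l1 in M1P held under every alternative run. With 3 arrays a line, changes much smaller than 2-fold would often not pass, and dim members such as Derl3 are the least certain.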

Other observations

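Prdx4, an ER peroxiredoxin that uses peroxide to drive disulfide formation, fell in E1KD against NMuMG (log2 difference -7.55 ± 0.12, adjusted p = 3.61e-13 by limma). Its log2 signal was 10.32, 10.42 and 10.39 in NMuMG and 2.42 to 3.08 in all 12 arrays of the silenced lines, which is below the median of every array; with no detection calls, the size of this fall is not known exactly. Ssr2 (-1.01) and Ssr4 (-0.89), 2 subunits of the translocon-associated complex that also holds Ssr1, fell in E1KD, while Ssr1 differed by 0.17 there and did not pass. Other Ssr1 probe sets went both ways. The brightest of them averaged 9.69 in NMuMG and 9.14 in E1KD, and the dimmer ones 4.24 and 4.63 in NMuMG and 4.87 and 5.06 in E1KD. In M1P, Ssr4 rose by 0.74.

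Against NMuMG, 10 of the 34 members had all E1KD arrays below all NMuMG arrays, where 22.3% of all genes did, and 5 had them above, where 13.7% of all genes did. Neither count was tested against those shares, and the 5 above were near theirs. Of these members, Xbp1 passed the test. The lower ones that did not pass included Dnajc3 (-0.55), Sdf2l1 (-0.51), Syvn1 (-0.47), Derl2 (-0.37), Pdia6 (-0.33), P4hb (-0.33) and Creld2 (-0.33), and the higher ones Edem1 (0.57), Ddit3 (0.42), Hspa5 (0.40) and Dnajb11 (0.26). A dimmer Edem1 probe set fell in that comparison, by 0.78 on the log2 scale, against the brighter one.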
